A study of Mus musculus with 40 samples.

Results

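MitoQ is a ubiquinone joined to a lipophilic triphenylphosphonium cation, which carries it into mitochondria, where the respiratory chain reduces it to an antioxidant quinol. Ubiquinone itself is made and kept by the Coq proteins and passes electrons from complexes I and II and from a set of flavin dehydrogenases to complex III. The proximal tubule of the renal cortex is rich in mitochondria and lives on fatty acid oxidation, and oxidants from its respiratory chain have long been studied in diabetic kidney disease. The comparison described here asked which renal cortex transcripts differed between diabetic Akita mice that received MitoQ and diabetic Akita mice that received water.

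All 40 libraries of the series came from the renal cortex of individual male mice on the C57BL/6J strain. Akita mice are heterozygous for the Ins2-Akita allele, a missense allele of an insulin gene that makes pancreatic beta cells fail and causes diabetes, and their wild type (WT) littermates were non-diabetic. Each genotype was given water, MitoQ in water, ethanol vehicle or MitoGamide, which is another mitochondria-targeted compound, with 5 mice in each of the 8 groups. Treatment was taken to run from 6 to 22 weeks of age in all 8 groups, the water and MitoQ groups included. The labels describe daily gavage over that time for MitoGamide and its ethanol vehicle only. The dose, route and schedule of MitoQ are not given in the sources used here. The comparison takes the 5 MitoQ against the 5 water libraries of Akita mice and the 18496 of 55401 genes whose counts averaged 10 or more across the 10 libraries.

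The tissue matched its label. Slc34a1, the phosphate transporter of the proximal tubule, had a mean of 3331 CPM (counts scaled to a common library size) in the water and 3169 CPM in the MitoQ libraries, and Lrp2, the endocytic receptor megalin, had means of 3812 and 4093 CPM. All 12 proximal tubule markers were tested, whereas markers of skeletal muscle were under the count minimum. Ins2 had 1 count in 10 libraries and Ins1 had 0, so that the Akita allele itself could not be checked in these kidneys. Library totals were 9106654 to 23109915 counts (median 14907446) on water and 14599613 to 17903654 counts (median 15723534) with MitoQ, with p = 0.746 by a two-sided exact permutation test (n = 5 each, smallest possible p = 0.00794).

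Water libraries 2 and 5 stood apart in their shares of mitochondrial ribosomal RNA and of ribosomal protein transcripts. Mitochondrial ribosomal RNA took 41.5% and 38.6% of their counts, against 19.3 to 27.3% in the other water libraries and 20.02 to 31.8% in the MitoQ libraries. Cytosolic ribosomal protein transcripts took 0.282% and 0.367% of their counts, against 0.544 to 1.01% in the other water libraries. The comparison was refitted without both, a choice made after seeing the data, and values from the refit are given beside many of the results. On the first principal component (45.2% of the variance) these 2 libraries scored 64.2 and 41.2. Water library 3 followed at 32.3 and MitoQ library 3 at 22.9, so that the libraries formed a graded series on this component. Water libraries 1 and 4, at -47.9 and -42.8, and MitoQ library 1, at -61.9, lay toward the other end. For some results a refit without water libraries 1 and 4 is given as well. Of the WT libraries that are set beside these, MitoQ library 3 had 46.6% mitochondrial ribosomal RNA and 0.162% ribosomal protein transcripts. The WT values below include it.

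No gene was called. At an adjusted p under 0.05 (edgeR's quasi-likelihood test, Benjamini-Hochberg over 18496 genes), 0 genes were higher and 0 were lower with MitoQ, which is 0% of those tested, and the smallest adjusted p was 0.999, which therefore holds for every gene below. DESeq2 called 0 genes as well, with a smallest adjusted p of 0.0634. Unadjusted p was under 0.05 for 363 genes (1.96%), which is less than the share of 0.05 that holds on average when no gene differs. Of these genes 280 were lower and 83 were higher. That lean depended on the libraries compared, since without water libraries 1 and 4 it was 2104 lower and 2570 higher. The MitoQ libraries lay entirely below the water libraries for 42 genes (0.227%) and entirely above them for 16 genes (0.0865%), 58 genes (0.314%) in all. Of all ways to split 10 libraries into 5 and 5, a proportion of 0.00794 separates the groups of a gene completely. The share seen here was smaller than that, so groups without overlap are only described below.

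The intervals bound what could have been missed. The 95% confidence interval of the log2 fold change lay within -1 and 1, a 2-fold change either way, for 15179 genes, or 82.1% of those tested. The median interval reached 0.48 to either side on the log2 scale. By the same test, 214 of 17051 genes (1.26%) were called for MitoGamide against its ethanol vehicle in Akita mice, where the biological coefficient of variation was 17.9%, against 25.8% here. In the plot of every tested gene, the points with the smallest p lie mostly on the side of lower levels with MitoQ.

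**Figure D1:**
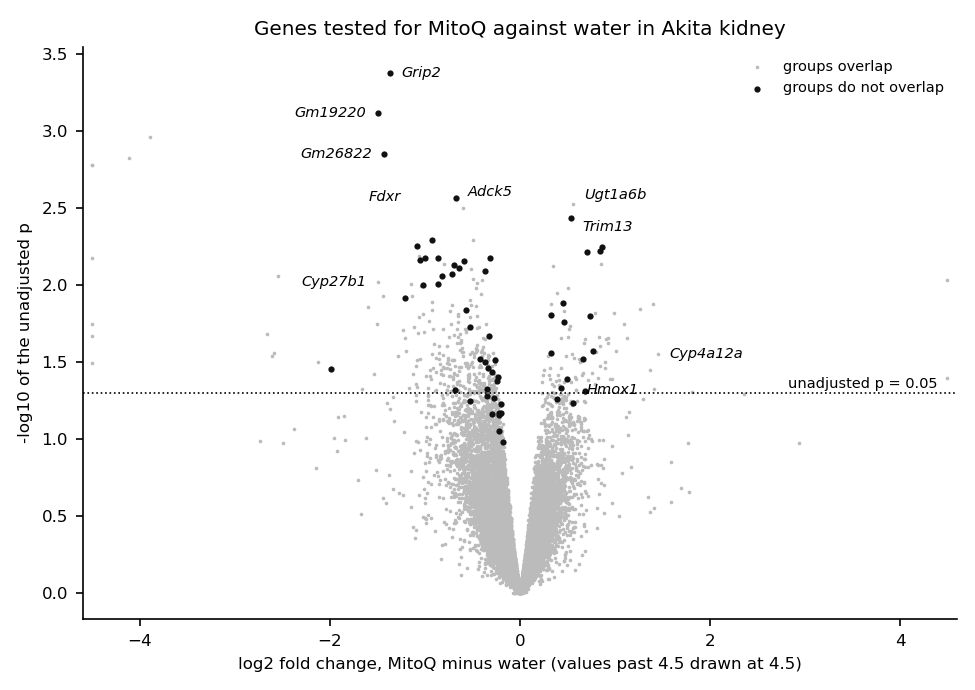
Each point is 1 of 18496 genes, with the log2 fold change (MitoQ minus water, Akita renal cortex, n = 5 each) on the x axis and -log10 of the unadjusted p of edgeR's quasi-likelihood test on the y axis. Black points are the 58 genes whose groups do not overlap. Grip2, Gm19220 and Gm26822 stand at the top on the left.

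Of the 4 genes with the smallest p, 3 shared a sequence feature. Grip2, Gm19220 and Gm26822 each hold an unbroken run of a single base, C or G, in a transcript of GENCODE M21 (GRCm38). Kallisto, the program that made the counts, matches reads to transcripts by shared words of 31 bases by default, and a run of at least 31 C or G bases fills such a word by itself. Among 55450 genes of that transcript set only 4 hold such a run (0.00721%), and all 4 were tested. They are Grip2 with a run of 33, Gm19220 with 33, Gm26822 with 34 and Zrsr1 with 38 bases. Zrsr1, a splicing factor related gene, ranked 852 by p. The runs of the 2 non-coding genes are shown because they are what these genes share, in capitals, with 30 bases on each side.
Gm19220: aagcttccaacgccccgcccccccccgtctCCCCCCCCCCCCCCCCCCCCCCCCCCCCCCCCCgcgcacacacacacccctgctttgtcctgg
Gm26822: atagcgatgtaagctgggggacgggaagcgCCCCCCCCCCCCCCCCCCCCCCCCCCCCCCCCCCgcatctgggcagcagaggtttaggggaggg
The Gm19220 window is chr12:40893691-40893783 (plus strand, GRCm38), in the single exon of a processed pseudogene of 803 bases. The Gm26822 window is chr16:10832620-10832713 (plus strand), in a lincRNA of 3374 bases. In Grip2, which encodes a scaffold protein of glutamate receptors, the run of G lies in the 5′ UTR of a transcript of the minus strand at chr6:91827077-91827109.

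Gm19220 was at 427, 1293, 566, 387 and 1228 CPM in water libraries 1 to 5 and at 269, 268, 326, 296 and 225 CPM in MitoQ libraries 1 to 5. All MitoQ libraries lay below all water libraries, and water libraries 2 and 5 were the highest. The log2 fold change was -1.49 with a standard error (SE) of 0.34 and a 95% interval of -2.22 to -0.76 (edgeR adjusted p = 0.999). Gm26822 was at 263, 870, 356, 242 and 761 CPM on water and at 201, 182, 192, 215 and 134 CPM with MitoQ, with a log2 fold change of -1.43 (SE 0.35). Grip2 was at 40.7, 116, 58.7, 47.9 and 113 CPM on water and at 30.6, 27.4, 33.3, 31.8 and 21.7 CPM with MitoQ, with a log2 fold change of -1.37 (SE 0.29). In all 3 genes the groups did not overlap and the same 2 water libraries were the highest. Without those libraries the log2 fold changes were -0.72 for Gm19220, -0.62 for Gm26822 and -0.75 for Grip2. When water libraries 1 and 4 were left out instead, Grip2 (-1.71, adjusted p = 0.0363) and Gm19220 (-1.89, adjusted p = 0.0369) were called by edgeR.

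Zrsr1, with the longest run, was at 24.5, 38.4, 25.9, 21.3 and 29.2 CPM on water and at 22.1, 25.6, 21.4, 22.8 and 22.8 CPM with MitoQ, so that its groups overlapped, and its log2 fold change was -0.28 (SE 0.15), or -0.047 without water libraries 2 and 5. The 21 tested genes with shorter runs of 20 to 27 bases had a median log2 fold change of -0.03 and a smallest p of 0.0982. In WT mice, where different libraries were compared, MitoQ gave log2 fold changes of -0.88 for Grip2, -0.64 for Gm19220 and -0.72 for Gm26822. For MitoGamide in Akita mice these were -0.89, -0.70 and -0.67. None of these was called. Whether the counts of these genes come from reads of their own transcripts or from any reads that hold a long run of C or G was not tested.

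**Figure D2:**
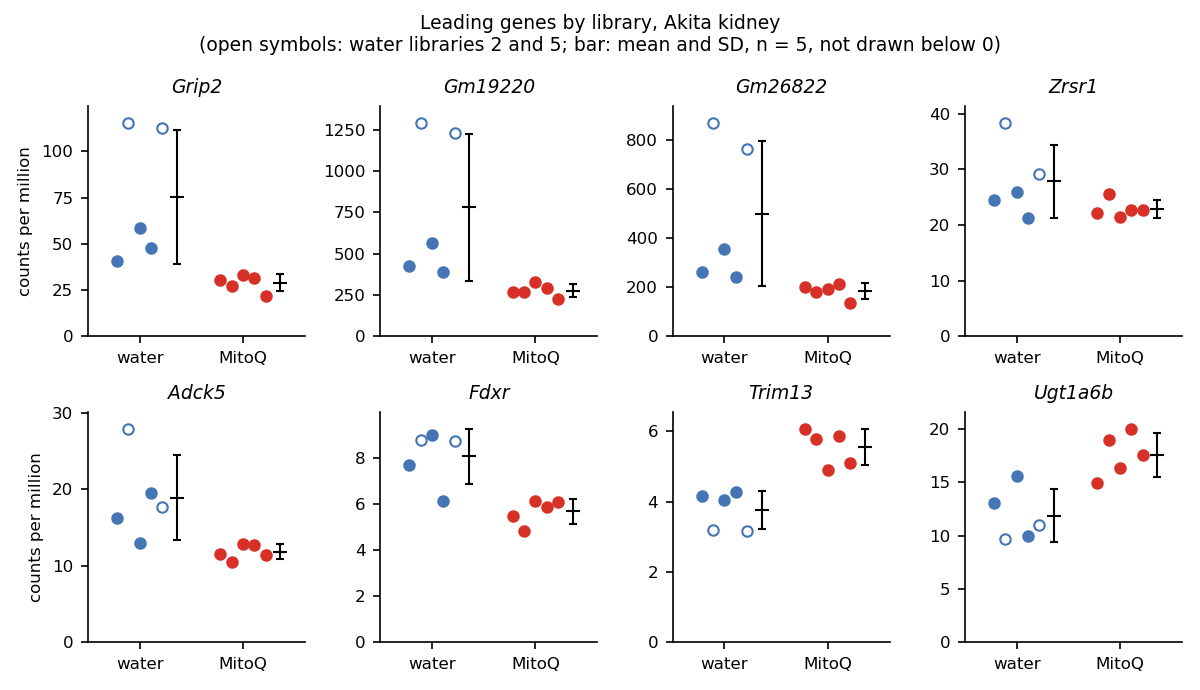
CPM on the y axis of 8 genes in each Akita library, by group (water in blue, MitoQ in red, n = 5 each), with the mean and SD as a bar. Open symbols are water libraries 2 and 5, which hold the highest values of Gm19220, at 1293 and 1228 CPM.

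The other leading genes on the lower side were small in size or in level. Adck5, a member of the ADCK kinase-like family to which the Coq8 proteins of ubiquinone synthesis belong, was at 16.3, 27.9, 13.0, 19.5 and 17.7 CPM on water and at 11.5, 10.5, 12.9, 12.7 and 11.4 CPM with MitoQ. Its groups did not overlap, and its log2 fold change was -0.67 (SE 0.18, edgeR adjusted p = 0.999). Fdxr, the mitochondrial reductase that feeds electrons to the cytochrome P450 enzymes of the inner membrane, was at 6.11 to 8.97 CPM on water and 4.81 to 6.12 CPM with MitoQ, groups that overlap only at their edges, with a log2 fold change of -0.50 (SE 0.15). The Fdxr difference was -0.44 in WT mice and -0.42 with MitoGamide in Akita mice. Tdrd5, Frmpd4 and Gm47208 had log2 fold changes of -0.60, -1.08 and -0.93, at means of 7.05, 2.03 and 1.24 CPM on water. Gm29013 and Gm37206 were at or under 9.39 CPM in every library.

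Gm10240 and Gm13370 are processed pseudogenes with the same 483 bases, so that their counts cannot be told apart. Each was listed at 4.88, 0, 4.05, 3.49 and 0 CPM in water libraries 1 to 5 and at 0 in all 5 MitoQ libraries. Against a limit of 3 counts over the MitoQ group, the mean of 2.49 CPM on water was at least 70.4-fold higher. That limit covers counting error only, and not how reads were split among copies. Both genes passed the count minimum only through water libraries 1, 3 and 4, so the bound is a description and no test of a difference. These 2 genes were the only ones called when water libraries 2 and 5 were left out (adjusted p = 0.0110, edgeR). Those are the water libraries where both were at 0, so the call cannot be separated from the choice of libraries. Of the 453 words of 31 bases in Gm10240, 451 also occur in Gm10163 and 391 in Rpl21, a ribosomal protein gene. Summed over Rpl21 and these 3 copies, the level was 74.5 ± 34.3 CPM on water and 78.3 ± 23.1 CPM with MitoQ (SD, n = 5). The sum gives no difference beyond the spread between libraries.

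Rnu3a, the U3 small nucleolar RNA that takes part in ribosomal RNA processing, is listed under 2 gene identifiers at 1 place on chromosome 10. The first was at 0 CPM in all water libraries and at 3.33, 0.990, 0, 3.11 and 0 CPM with MitoQ. The second was at 1.78 to 3.53 CPM on water and at 0, 0, 1.68, 0 and 1.52 CPM with MitoQ. In the MitoQ libraries 1 of the identifiers was therefore listed at 0 wherever the other was above 0.

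On the higher side, Ugt1a6b, which encodes a glucuronosyltransferase of phenols and drugs, was at 13.1, 9.69, 15.6, 9.95 and 10.98 CPM on water and at 14.9, 18.9, 16.3, 20.005 and 17.5 CPM with MitoQ. The groups overlapped by a single water library. Its log2 fold change was 0.56 (SE 0.15, edgeR adjusted p = 0.999), with 0.53 in WT mice and -0.41 with MitoGamide in Akita mice. Ugt1a6b shares its last exons with the other Ugt1a genes, so that its counts depend on how shared reads were split. Trim13, a ubiquitin ligase of the endoplasmic reticulum, was at 3.17 to 4.28 CPM on water and 4.90 to 6.08 CPM with MitoQ, without overlap, a log2 fold change of 0.54 (SE 0.15). Vangl1, a protein of planar cell polarity, had a log2 fold change of 0.39 (SE 0.13) and Tmem254b one of 0.51 (SE 0.17). Besides Rnu3a and Cyp4a12b, the remaining genes of the 12 with the smallest p on this side were Gm38010, Gm13285, Gm13855, Gm42031, Gm37285 and Wfdc16, of which only Gm42031 was above 10 CPM.

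A pair of short and abundant pseudogenes, described after their values were seen, had most of their MitoQ libraries below their water libraries. Gm12895 and Gm12896, processed pseudogenes of 226 bases on chromosome 4, share 224 bases, and the sequence of Gm12895 (chr4:122455210-122455435, plus strand, GRCm38) is shown, with the bases it does not share in capitals.
Gm12895: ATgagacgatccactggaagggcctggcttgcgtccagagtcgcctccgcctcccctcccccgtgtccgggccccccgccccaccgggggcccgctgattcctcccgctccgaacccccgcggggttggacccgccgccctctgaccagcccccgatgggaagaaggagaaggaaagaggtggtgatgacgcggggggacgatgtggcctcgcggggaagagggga
Gm12895 was at 10851, 4448, 8688, 8593 and 9343 CPM on water and at 7588, 3629, 3104, 3658 and 4064 CPM with MitoQ. Water library 2 lay among the MitoQ libraries, and MitoQ library 1 lay near the water libraries. The log2 fold change was -0.93 (SE 0.32, edgeR adjusted p = 0.999), and -0.92 for Gm12896. With WT mice it was -0.84 (SE 0.56) and with MitoGamide in Akita mice -0.64 (SE 0.27) for Gm12895, and neither was called.

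Genes of ubiquinone synthesis and use are those closest to MitoQ's own chemistry. All 13 listed genes of ubiquinone synthesis were tested, 0 were called, and all 13 had a 95% interval within a 2-fold change. Their log2 fold changes ran from -0.13 for Coq8b to 0.17 for Coq10b, with a median of 0.02 against -0.02 over all genes tested. The median was -0.088 and Coq10b was at -0.089 without water libraries 2 and 5. With water libraries 1 and 4 left out instead, the median was 0.25. Coq8b, a kinase-like protein of the ubiquinone biosynthetic complex, was at 12.4 to 15.6 CPM on water and 10.9 to 14.5 CPM with MitoQ (log2 fold change -0.13, SE 0.12, and -0.19 without water libraries 2 and 5). Coq10a, a lipid-binding protein that helps ubiquinone reach the respiratory chain, was at 8.85 to 11.2 CPM and 9.75 to 11.6 CPM (0.13, SE 0.11, and 0.21 without them). In both genes the groups overlapped.

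Among 17 enzymes that reduce ubiquinone or other quinones, 0 were called, the median was 0.09, or -0.13 without water libraries 2 and 5, and all 17 intervals of the full comparison lay within a 2-fold change. Leaving out water libraries 1 and 4 instead gave a median of 0.39. Gpd2, the mitochondrial glycerol-3-phosphate dehydrogenase that passes electrons from cytosolic glycerol phosphate to ubiquinone, was at 44.6, 20.4, 39.9, 42.2 and 39.9 CPM on water and at 57.9, 49.2, 44.7, 45.5 and 48.4 CPM with MitoQ. The MitoQ libraries lay just above the water libraries, by 44.7 against 44.6 CPM at the boundary, and the log2 fold change was 0.39 (SE 0.18). Without water libraries 2 and 5 it was 0.23. Prodh2, which oxidizes hydroxyproline in mitochondria, was at 58.1 to 102 CPM on water and 39.7 to 68.7 CPM with MitoQ (log2 fold change -0.45, SE 0.18, and -0.26 without those libraries). Nqo1, the cytosolic quinone reductase, had a log2 fold change of -0.01 (SE 0.21), or -0.15 without them, and its sign changed with the scaling.

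**Figure D3:**
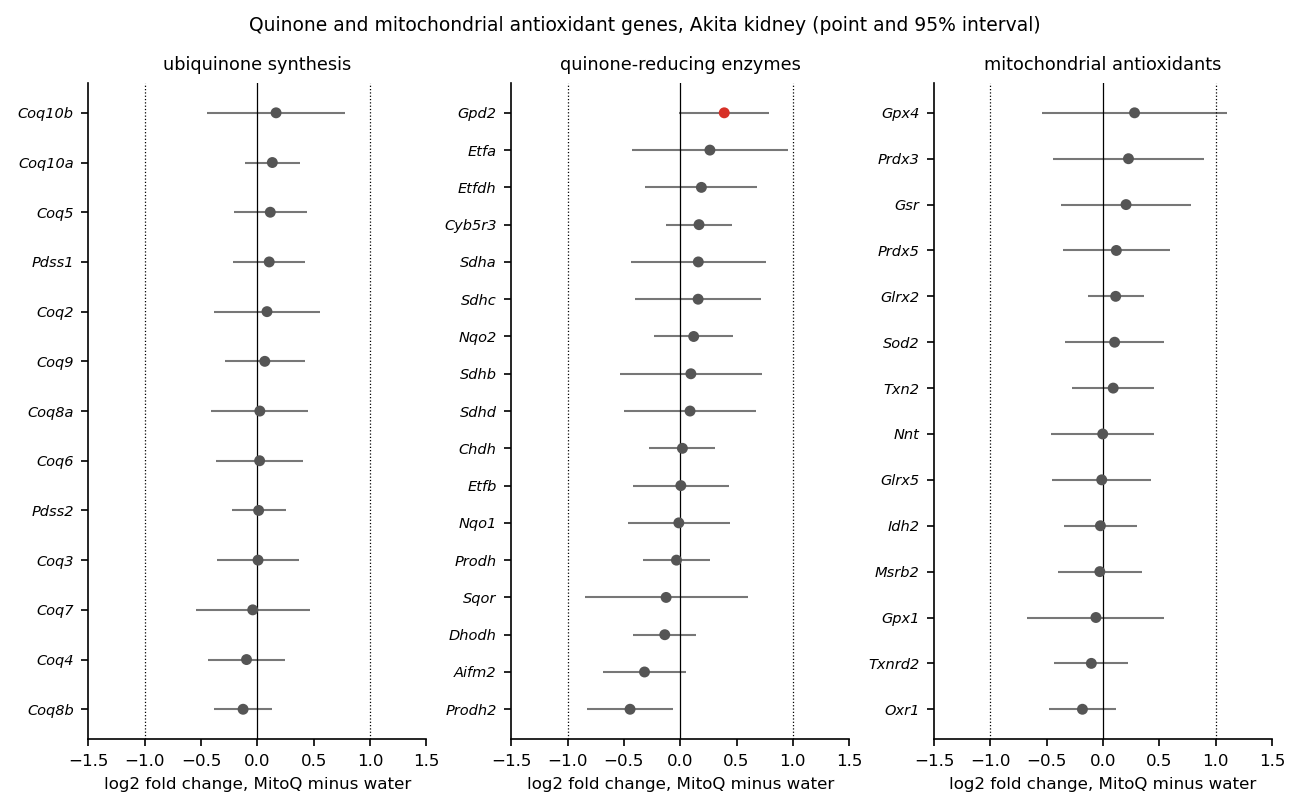
Log2 fold change (MitoQ minus water, Akita, n = 5 each) with its 95% interval on the x axis, for the genes of ubiquinone synthesis, quinone reduction and mitochondrial antioxidant defence, dotted lines at -1 and 1. The red point is Gpd2, whose groups do not overlap. All 13 genes of ubiquinone synthesis lie between -0.13 and 0.17.

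The antioxidant genes did not differ beyond their errors. Sod2, the superoxide dismutase of the mitochondrial matrix, was at 138 to 261 CPM on water and 181 to 250 CPM with MitoQ, with a log2 fold change of 0.10 (SE 0.20, 95% interval -0.34 to 0.55). Prdx3, the matrix peroxiredoxin, had 0.23 (SE 0.31) and Cat, the peroxisomal catalase, 0.13 (SE 0.19). All 3 of these values were below 0 without water libraries 2 and 5, at -0.11, -0.090 and -0.043. Their highest values over all alternatives were 0.48, 0.80 and 0.43. Nnt, the transhydrogenase that supplies matrix NADPH and is known to carry a deletion in C57BL/6J mice, is listed under 2 identifiers with values of -0.14 (SE 0.27) and -0.0029 (SE 0.21) on the log2 scale, and without those libraries -0.16 and -0.15. Mitochondrial antioxidant enzymes had a median of -0.0029 over 15 tested identifiers with 7 positive, and 0 were called. Without water libraries 2 and 5 the median was -0.11 with 1 of 15 positive, and without water libraries 1 and 4 it was 0.25 with 13 of 15 positive.

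NRF2 is the transcription factor that answers oxidants and electrophiles. Of its 26 tested targets, 13 had positive and 13 negative log2 fold changes, 0 were called, and the median was 0.01, or -0.09 with 10 positive without water libraries 2 and 5. Leaving out water libraries 1 and 4 instead gave a median of 0.28 with 21 positive. Hmox1, the heme-degrading oxygenase, had the largest positive value at 0.59 (SE 0.27), from 21.6, 11.6, 12.5, 26.1 and 11.4 CPM on water to 37.9, 22.3, 21.3, 18.3 and 26.6 CPM with MitoQ. The groups overlapped, and without water libraries 2 and 5 the value was 0.34. The same gene had 2.60 (SE 0.80) with MitoGamide in Akita mice, not called at an adjusted p of 0.107, and -0.04 with MitoQ in WT mice. Ephx1, the microsomal epoxide hydrolase, had -0.46 (SE 0.25), or -0.27 without water library 4 and -0.63 without water libraries 2 and 5, and Gsta4, a glutathione transferase of lipid aldehydes, -0.59 (SE 0.51).

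The signs in the respiratory chain lists turned with the libraries that were compared. Of 37 nuclear genes of complex I, the NADH dehydrogenase that reduces ubiquinone, 35 had a positive log2 fold change, with a median of 0.11 and 0 called. The summed level of these genes was 2888, 1295, 1691, 2627 and 1644 CPM on water and 3177, 1923, 1755, 1912 and 2285 CPM with MitoQ, so that the groups overlapped, with water libraries 2 and 5 the lowest of the 10 and water libraries 1 and 4 among the highest. The log2 difference of the summed level was 0.16, and 0.010 to 0.30 with each library left out in turn. When water libraries 2 and 5 were left out, 4 of 37 genes were positive and the median was -0.13, and when water libraries 1 and 4 were left out instead, 36 of 37 were positive and the median was 0.53. Leaving out MitoQ library 1 alone gave 6 of 37 positive, and water library 2 alone 13 of 37. With water libraries 2 and 5 left out, the count for complexes II and III went from 12 of 14 to 2 of 14, that for complex IV from 8 of 12 to 1 of 12 and that for ATP synthase from 12 of 15 to 1 of 15. The enzymes of the citric acid cycle and pyruvate dehydrogenase went from 23 of 26 (median 0.10) to 1 of 26 (median -0.09). The same held for genes of ubiquinone synthesis, with 10 of 13 and then 3 of 13 positive, and for quinone-reducing enzymes, with 11 of 17 and then 3 of 17. Leaving out a pair of water libraries at one end of this spread moves the signs by construction, and the counts are given as a description of these libraries.

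Transcripts of the mitochondrial genome were counted apart from the nuclear genes. All 13 protein transcripts had positive log2 fold changes, from 0.07 for mt-Co2 to 0.65 for mt-Atp6, with a median of 0.25, and without water libraries 2 and 5 it was 9 of 13 with a median of 0.14. The median was 0.52 without water library 4 alone and 0.79 without water libraries 1 and 4. The transcript mt-Nd4l, a complex I subunit, was at 785, 686, 587, 910 and 633 CPM on water and at 901, 1110, 795, 981 and 914 CPM with MitoQ (log2 fold change 0.38, SE 0.17). Their median was 0.72 with MitoQ in WT mice and 0.35 with MitoGamide in Akita mice, and 0 were called in this comparison. Cycs, the nuclear gene of cytochrome c, had 0.47 (SE 0.22). Ppargc1a, the coactivator of mitochondrial biogenesis, had -0.14 (SE 0.11), and Mief2, an adaptor of mitochondrial fission, -0.34 (SE 0.14). These groups are measured in RNA of whole cortex, in which fewer cells of a type and less RNA per cell cannot be told apart.

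Fatty acid oxidation genes had a median of 0.02 over 33 tested, with 17 positive and 0 called, and of -0.16 with 5 positive without water libraries 2 and 5. Leaving out water libraries 1 and 4 instead gave a median of 0.48 with 30 positive. Within that list, Cyp4a12a, a fatty acid hydroxylase of the male mouse kidney, had the largest value, 1.46 (SE 0.59, edgeR adjusted p = 0.999). It was at 12.0, 5.24, 23.3, 3.32 and 21.3 CPM on water and at 32.5, 57.4, 35.4, 5.65 and 47.0 CPM with MitoQ. Its near copy Cyp4a12b was at 15.6, 8.32, 19.4, 7.33 and 13.6 CPM on water and at 25.5, 25.9, 24.0, 14.1 and 26.7 CPM with MitoQ, a log2 fold change of 0.85 (SE 0.27). MitoQ library 4 alone lay among the water libraries in both. Acaa1b, a peroxisomal thiolase, had -0.43 (SE 0.19).

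Kap, Cyp2j13, Slc7a13 and Slco1a1 are described beside these genes. They were picked after their values were seen. Cyp2j13 had the highest value of the drug-metabolizing enzymes (26 of 31 tested positive, median 0.19, or 19 of 31 and 0.10 without water libraries 2 and 5), Slco1a1 that of the drug and organic ion transporters (13 of 21, median 0.13, or 11 of 21 and 0.0051) and Slc7a13 that of the proximal tubule markers (7 of 12, median 0.06, or 7 of 12 and 0.02). None of these 3 lists held a called gene. Kap, the kidney androgen-regulated protein of the proximal tubule, was at 2035, 789, 2899, 371 and 1723 CPM on water and at 5271, 4668, 3183, 122 and 3217 CPM with MitoQ. In MitoQ libraries 1, 2, 3 and 5 Kap was above every water library, and in MitoQ library 4 it was the lowest of all 10 libraries. The log2 fold change was 1.07 with an SE of 0.73 (95% interval -0.51 to 2.66). Cyp2j13, a cytochrome P450, was at 15.2 to 156 CPM on water and at 217, 234, 174, 13.0 and 179 CPM with MitoQ (log2 fold change 0.83, SE 0.65, and 0.55 without water library 4). Slc7a13, a cystine and aspartate transporter of the late proximal tubule, was at 59.4 to 154 CPM on water and at 180, 219, 171, 21.2 and 167 CPM with MitoQ (0.83, SE 0.47). Slco1a1, an organic anion transporter, was at 2.97 to 46.9 CPM and 1.56 to 93.1 CPM, with broad overlap (0.89, SE 0.82, with 1.35 without water library 1 and 0.35 without MitoQ library 1). In the ethanol arm, where Akita and WT mice were compared, these genes were lower in diabetes, by log2 fold changes of -1.88 for Kap, -1.97 for Cyp4a12a, -1.28 for Cyp2j13, -1.58 for Slc7a13 and -3.15 for Slco1a1, and all 5 were called (edgeR, largest adjusted p = 0.00174), against 16.4% of all genes tested there. Cyp4a12b was not called there (0.34). In WT mice MitoQ gave between -0.15 and 0.24 for these 5 genes. Without water libraries 2 and 5 the log2 fold changes with MitoQ in Akita mice were 0.91 for Kap, 0.90 for Cyp2j13, 0.66 for Slc7a13 and 0.49 for Slco1a1.

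**Figure D4:**
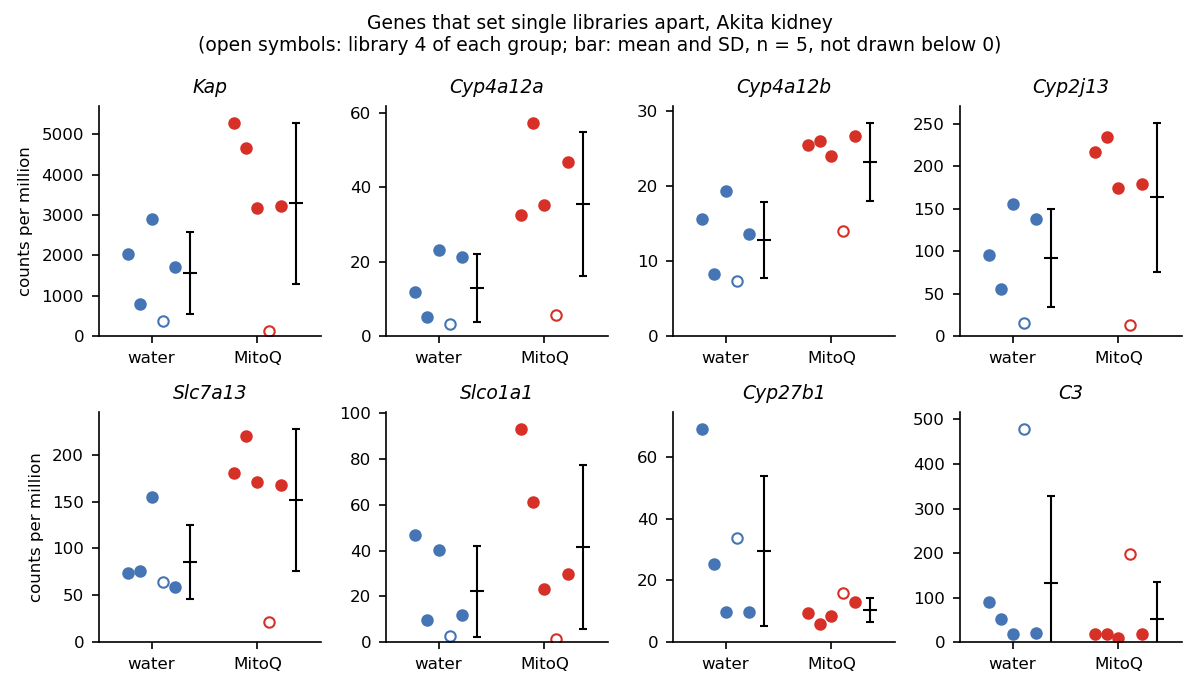
CPM on the y axis of 8 genes in each Akita library, by group (water in blue, MitoQ in red, n = 5 each), with the mean and SD as a bar. Open symbols are library 4 of each group. For Kap, Cyp2j13 and Slc7a13 the open symbol of MitoQ is the lowest of the 10 libraries, at 122, 13.0 and 21.2 CPM.

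Library 4 of each group was also high in C3, the central complement component, which proximal tubule cells make when injured. C3 was at 91.4, 52.3, 18.2, 479 and 21.0 CPM on water and at 17.9, 18.1, 10.5, 199 and 18.1 CPM with MitoQ. Its log2 fold change was -1.33 (SE 1.01), and without water library 4 it was 0.20. Of 17 tested genes of tubular injury, 15 had negative log2 fold changes with a median of -0.17, and 14 of 17 without water libraries 2 and 5 with a median of -0.29, and 0 were called. Leaving out water libraries 1 and 4 instead gave 8 of 17 negative and a median of 0.0050. Vim, a filament protein of dedifferentiated tubule cells, was at 16.3 to 22.6 CPM on water and 15.4 to 17.2 CPM with MitoQ (-0.24, SE 0.11). Krt18, a keratin of stressed tubules, had -0.50 (SE 0.24), or -0.31 without water library 4. Havcr1, the gene of the injury marker KIM-1, had 81 counts in the 10 libraries together and was not tested.

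Matrix and fibrosis genes had 24 of 30 negative values with a median of -0.10, but 16 of 30 with a median of -0.0045 without water libraries 2 and 5. Col18a1, a basement membrane collagen, had -0.29 (SE 0.13), or -0.12 without those libraries. Of 24 inflammatory genes 13 were tested, with a median of -0.02, or -0.049 without the 2 libraries. Their median was 0.17 over 12 tested genes without water libraries 1 and 4. Interferon response genes had 24 of 31 negative values and a median of -0.12, and 23 of 31 without water libraries 2 and 5. With water libraries 1 and 4 left out instead, 14 of 31 were negative and the median was 0.029. Stat2, a transcription factor of the type I interferon response, was at 14.5, 25.3, 15.9, 13.4 and 13.6 CPM on water and at 12.2, 11.2, 13.2, 12.7 and 12.2 CPM with MitoQ, which did not overlap (log2 fold change -0.42, SE 0.17, and -0.23 without water libraries 2 and 5). None of these lists held a called gene.

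The hormonal genes Cyp27b1 and Ren1 spread more among the water than among the MitoQ libraries. Cyp27b1, the mitochondrial enzyme that makes active vitamin D, was at 69.0, 25.2, 9.95, 33.7 and 9.78 CPM on water and at 9.35, 5.94, 8.67, 15.9 and 13.0 CPM with MitoQ. Water libraries 3 and 5 lay within the MitoQ range. Its log2 fold change was -1.49 (SE 0.49, 95% interval -2.55 to -0.43, edgeR adjusted p = 0.999), and it ranged from -1.71 to -0.91 when a library was left out, the latter without water library 1, and was -1.82 without water libraries 2 and 5. Over all alternatives it ran from -1.82 to -0.48. The value was -0.94 (SE 0.41) with MitoQ in WT mice and -0.67 (SE 0.82) with MitoGamide. Cyp24a1, which breaks down vitamin D, had 0.19 (SE 0.47), or -0.11 without water libraries 2 and 5. Ren1, the renin gene of juxtaglomerular cells, was at 63.1, 36.9, 19.0, 33.6 and 24.9 CPM on water and at 27.0, 17.96, 23.9, 28.9 and 14.7 CPM with MitoQ, with overlap and a log2 fold change of -0.66 (SE 0.29), or -0.34 without water library 1 and -0.77 without water libraries 2 and 5. The value in WT mice was -0.68 (SE 0.37).

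Glucose handling showed no called gene. Of 12 glucose and fructose transporters 8 had negative values, with a median of -0.03, and 9 had them without water libraries 2 and 5, with a median of -0.15. Leaving out water libraries 1 and 4 instead gave 10 of 12 positive values and a median of 0.32. Slc2a4, the insulin-regulated transporter GLUT4, was at 14.0 to 16.8 CPM on water and 12.8 to 13.9 CPM with MitoQ, without overlap, yet the difference was only -0.20 on the log2 scale (SE 0.10). Glycolysis and gluconeogenesis genes had a median of -0.0050 with 12 of 24 tested positive, and of -0.12 with 3 of 25 positive without water libraries 2 and 5. Their median was 0.30 with 19 of 24 positive without water libraries 1 and 4. The thiazide-sensitive cotransporter Slc12a3 of the distal convoluted tubule was at 979, 1777, 1485, 1017 and 1511 CPM on water and at 796, 951, 1176, 1206 and 931 CPM with MitoQ, an overlap with a log2 fold change of -0.42 (SE 0.21), or -0.18 without water libraries 2 and 5. The summed level of the 5 distal convoluted tubule markers was 2344 to 2535 CPM on water and 1704 to 2370 CPM with MitoQ, and none of the 5 was called. Per library total, without TMM, the sum was 1823 to 2559 CPM on water and 1651 to 2615 CPM with MitoQ, and the log2 difference was -0.10 in place of -0.30. Podocyte markers summed to 297 to 404 CPM and 291 to 397 CPM, and macrophage markers to 94.4 to 132 CPM and 88.0 to 133 CPM.

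The genes that diabetes changed were taken from the ethanol arm, which shares no library with the MitoQ comparison. In that arm 2910 of 17747 genes (16.4%) were called between Akita and WT mice. Of the 1451 that were higher in diabetes, 1440 were also tested for MitoQ, and their median log2 fold change with MitoQ was -0.10, with 403 above and 1037 below 0. Of the 1459 lower in diabetes, 1419 were tested and had a median of 0.12, with 1070 above and 349 below 0. Over the 17428 genes tested in both, the median was -0.01 and 47.3% were above 0. None of these genes was called for MitoQ, as was none of the 18496.

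The SD between libraries, pooled within the 2 groups, was 0.10 for the median level of the first set and 0.15 for that of the second. The median level of the genes higher in diabetes, relative to the mean of the 10 libraries, ran from -0.08 to 0.12 on the log2 scale in the water libraries and from -0.21 to 0.08 with MitoQ. For the genes lower in diabetes it ran from -0.23 to 0.11 on water and from -0.17 to 0.27 with MitoQ. In this second set MitoQ library 4 was the lowest of the MitoQ libraries, and water libraries 2 and 5 were the lowest on water. The groups overlapped in both sets. Without water libraries 2 and 5 the median fold changes were -0.08 and 0.03. Over all alternatives they ran from -0.14 to -0.04 for the first set and from 0.03 to 0.23 for the second. In WT mice, MitoQ gave medians of -0.12 and 0.05 for the same 2 sets.

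**Figure D5:**
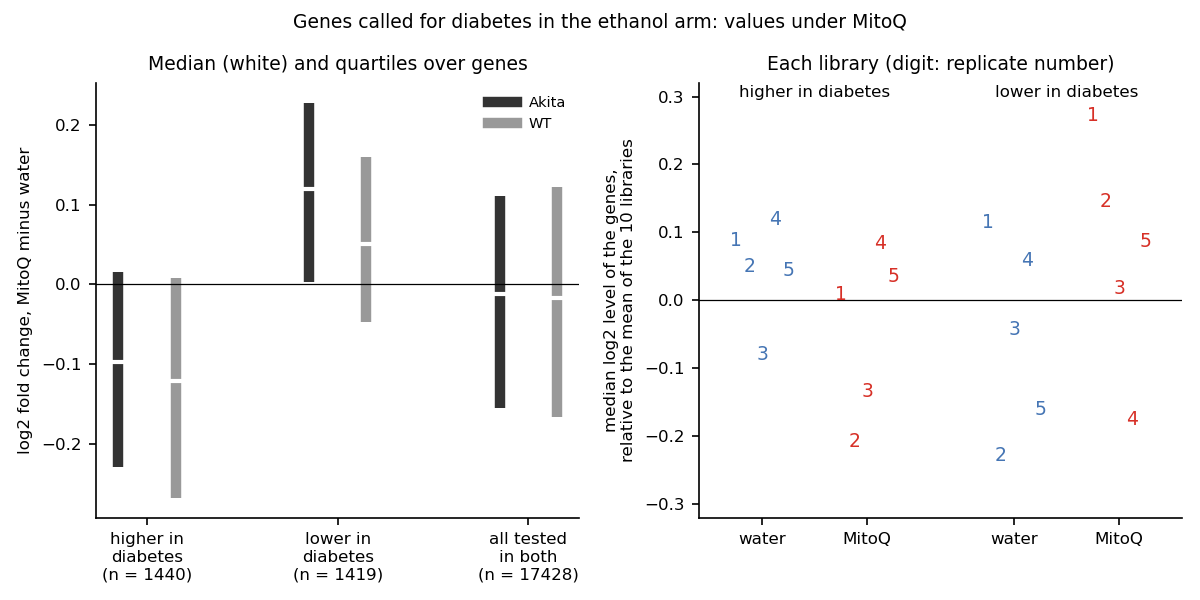
Left, the median (white line) and quartiles of the log2 fold change with MitoQ over genes higher, lower or tested in diabetes in the ethanol arm, in Akita (black) and WT (grey) mice. Right, the median log2 level of these genes in each library, water in blue and MitoQ in red, with the replicate number as the symbol. The groups overlap in both sets.

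A set of 5 genes called for diabetes in the ethanol arm was examined singly. Kynu, the kynureninase of tryptophan breakdown, had a log2 fold change of 2.56 in diabetes on ethanol and of -0.30 (SE 0.29) with MitoQ, which ranged from -0.45 without water library 3 to -0.10 without water library 4. Ugt1a10, a glucuronosyltransferase, had 4.78 in diabetes, and with MitoQ -0.38 (SE 0.48), from 23.3, 32.1, 23.8, 115 and 28.6 CPM on water to 19.2, 21.2, 24.5, 65.4 and 41.3 CPM. Water library 4 was the highest, and without it the value was 0.35, while without water libraries 2 and 5 it was -0.65. Pdxk, the pyridoxal kinase of vitamin B6, had 1.25 in diabetes and -0.06 (SE 0.22) with MitoQ, or -0.13 without water libraries 2 and 5. Hsd17b11, a lipid droplet dehydrogenase, had -1.32 in diabetes and 0.59 (SE 0.27) with MitoQ, or 0.33 without water libraries 2 and 5. Ly6e, a membrane-anchored protein, had -1.62 in diabetes and -0.06 (SE 0.14) with MitoQ, or -0.16 without them.

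Chaperones fold new and damaged proteins. In the ethanol arm 19 of 20 endoplasmic reticulum chaperones and unfolded protein response genes were called, against 16.4% of all genes tested there, with a median of -0.70, and all 16 cytosolic heat shock genes were called, with a median of -0.94. With MitoQ, 19 of 20 and 15 of 16 had positive values, with medians of 0.19 and 0.21, and 0 were called. Without water libraries 2 and 5, 12 of 20 and 13 of 16 were positive, with medians of 0.04 and 0.07. Leaving out water libraries 1 and 4 instead gave medians of 0.53 and 0.47. Dnaja1, an Hsp70 cochaperone, was at 138, 58.8, 97.1, 116 and 69.9 CPM on water and at 178, 157, 119, 89.8 and 124 CPM with MitoQ (log2 fold change 0.48, SE 0.24, and 0.20 without water libraries 2 and 5). The lowest values of Dnaja1 were those of water libraries 2 and 5.

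The effect of MitoQ was set against that in WT mice and against MitoGamide. In WT mice 0 of 17881 genes (0%) were called and 575 had an unadjusted p under 0.05. The biological coefficient of variation was 31.4% there, against 25.8% in Akita mice. Without WT MitoQ library 3, 0 genes were called and 847 had an unadjusted p under 0.05 by edgeR. For the difference of the MitoQ effect between Akita and WT mice, 0 of 18225 genes (0%) were called by edgeR and 0 by DESeq2, with 207 at an unadjusted p under 0.05 by edgeR. The median SE of this difference was 0.35, against 0.22 for the MitoQ effect in Akita mice. Differences between the genotypes could thus be missed more easily, and 0 calls do not show that the effects were alike. The smallest p was that of Zfp97, a zinc finger gene, with -0.29 in Akita and 0.70 in WT mice, a difference of -0.99 (SE 0.21, edgeR adjusted p = 1.00). Hs3st6, a heparan sulfate sulfotransferase, differed by 1.64 (SE 0.36). Over the 13 mitochondrially encoded protein transcripts the difference ran from -1.20 for mt-Nd6 to 0.81 for mt-Co2, and none was called.

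MitoQ and MitoGamide share a mitochondria-targeting design but were given in different vehicles, so that each was compared with its own vehicle. The effects differed for 1 of 17844 genes (0.0056%), Gm43652, an unclassified transcript at chr3:127863184-127863858. Its log2 fold change was -0.53 (SE 0.21) with MitoQ and 1.94 (SE 0.30) with MitoGamide, a difference of -2.47 (95% interval -3.27 to -1.67, edgeR adjusted p = 0.0423). DESeq2 called 10 genes for this difference. Tbata, a gene best known from testis and thymus, had -0.33 with MitoQ (-0.20 without water libraries 2 and 5) and 2.45 with MitoGamide, a difference of -2.78 (SE 0.46, edgeR adjusted p = 0.0542). For Hmox1 the difference was -2.04. The call of Gm43652 was not stable. No gene was called by edgeR when any 1 of 13 of the 20 libraries was left out (ethanol 2, 3, 4 or 5, water 2, 4 or 5, MitoGamide 1 or 4, MitoQ 1, 2, 4 or 5), with the replicate block, or without water libraries 2 and 5, where the smallest adjusted p was 0.311.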

How the data were processed

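Renal cortex RNA was depleted of ribosomal RNA, made into directional libraries and sequenced as single reads. The authors trimmed reads with Skewer, matched them to GENCODE mouse v25 transcripts (GRCm38) with kallisto 0.46.1 and deposited estimated counts summed per gene as whole numbers, read into R 4.0.2 per the labels. The strand setting is not given in the sources used here. Here, edgeR 4.0.16 (R 4.3.3) tested these expected counts with TMM factors and its quasi-likelihood test for genes averaging 10 or more counts, and p-values were adjusted by Benjamini-Hochberg over all genes tested at 0.05. CPM use TMM-scaled totals. DESeq2 1.42.0 was an alternative, and the scripts were tested on simulated data. Positions, transcripts and run lengths come from GENCODE M21 (GRCm38), which holds 99.5% of the gene identifiers. Samples were grouped by their titles. Each mouse gave 1 library.

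The members and gene lists were chosen with earlier results of these data known. Named genes were the 12 with the smallest p in each direction, the called or leading members of each list, the 5 leading genes of each difference of effects, 5 diabetes genes, Ins2 and Nnt. Kap and the genes described for a shared sequence, as extremes of a list or beside Kap were chosen after their values were seen. Replicate numbers were not treated as pairs, except in the replicate block. Alternatives were other scalings, filters, joint fits, a replicate block, each library left out and, chosen after seeing the data, water libraries 2 and 5, or 1 and 4, left out. Counting error and the spread between mice both enter the SE.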

Additional observations from a re-analysis of the deposited data

Results flagged for a closer look

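Gaps between 1 library and the other 4 of its group were checked for 272 sets of 5 libraries, and 26 (9.56%) passed Dixon's 95% limit. That limit is passed by about 1 in 20 sets of normally distributed values. These sets were mostly CPM, and some of the genes were chosen after their values were seen. The share of 9.56% can therefore not be read against 1 in 20. MitoQ library 4 accounted for many of them. It was low for Cyp2j13 (13.0 CPM, the others from 174 to 234), Slc7a13 (21.2 CPM), Cyp4a12b (14.1 CPM), Vangl1 (15.5 CPM) and Frmpd4 (0.346 CPM), and for the summed levels of matrix genes (2350.2 CPM) and stroma and mesangium markers (143 CPM). It was high for C3 (199 CPM, the others from 10.5 to 18.1), Hs3st6 (1.44 CPM) and the summed podocyte markers (397 CPM). Water library 4 was high for C3 (479 CPM), Ugt1a10 (115 CPM), Nqo1 (57.7 CPM) and the summed inflammation genes (729 CPM).

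Water library 2 was high for Prodh2 (102 CPM) and Stat2 (25.3 CPM) and low for Gpd2 (20.4 CPM). Water library 3 was high for Slc7a13 (154 CPM) and low for Mt1 (23.6 CPM), the metallothionein. Water library 5 was high for the summed principal cell markers (295 CPM), and water library 1 for the summed phosphate, calcium and vitamin D genes (7557 CPM). MitoQ library 1 was high for Gm12895 (7588 CPM), Gm12896 (6367 CPM) and Sod2 (249.6 CPM). MitoQ library 2 was high for Gm37206 (0.424 CPM) and for CT010467.1, a ribosomal RNA fragment, which took 3.83% of its counts against 0.0337 to 0.183% in the other MitoQ libraries. The causes were not tested.

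Gm43652 differed between MitoQ and MitoGamide by the test of the difference itself, -2.47 on the log2 scale (edgeR adjusted p = 0.0423). No gene was called for this difference with the replicate block, without water libraries 2 and 5, or without any 1 of 13 of the 20 libraries.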

How the results depend on the processing

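The count of 0 called genes in Akita mice held under 19 of 21 alternatives, the replicate block and each library left out included (0 to 0 genes). Without water libraries 2 and 5 it was 2, both lower (Gm10240 and Gm13370, which were at 0 in the libraries left out). With water libraries 1 and 4 left out instead it was 3, all lower (Grip2, Gm19220 and Gm29013). In that fit 4674 genes had an unadjusted p under 0.05, of which 2570 were higher and 2104 lower. In WT mice the count was 2 with DESeq2, 18 with all 40 libraries in one fit, 1 with the replicate block and 1 with a covariate for the axis along which replicates differ most. The difference between genotypes gave 0 throughout. The difference between MitoQ and MitoGamide gave 10 genes with DESeq2, 3 with no filter, 2 with at least 10 counts in every library, 0 with the replicate block, 0 without water libraries 2 and 5 and 0 to 4 with a library left out. The cause was not tested.

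Same-numbered libraries correlated from -0.15 to 0.65, over 0.1 in 3 of 5 pairs. Libraries 1 and 3 matched their own number best, while numbers 4 and 5 correlated below 0. Whether the numbers stand for pairs is not given in the sources used here. The block left 0 genes called, with a smallest adjusted p of 0.0943 by edgeR (513 at an unadjusted p under 0.05, against 363). The medians of genes higher or lower in diabetes ran from -0.14 to -0.06 and from 0.05 to 0.18 with a library left out, and were -0.037 and 0.17 with no filter and -0.093 and 0.058 with the axis covariate. Of 77 named log2 fold changes, 67 kept their direction in all settings. Nqo1 was 0.0025 with RLE scaling, 0.0035 with DESeq2, 0.038 with no filter, 0.0020 with the block and -0.14 to 0.20 with a library left out. Without water libraries 2 and 5, Cyp24a1 was -0.11, Sod2 -0.11, Cat -0.043 and Prdx3 -0.090, and Sod2 was -0.00052 with the axis covariate. With a library left out, Ugt1a10 ran from -0.75 to 0.35, Pdxk from -0.20 to 0.075, Ly6e from -0.12 to 0.029 and C3 from -3.04 to 0.20. Without water libraries 1 and 4 these 4 were 0.30, 0.14, 0.15 and 0.81, Nqo1 was 0.17 and Kynu 0.088. Of 56 summed levels, 11 moved by more than the spread between libraries without TMM. Genes under the count minimum, such as Havcr1 and most lymphocyte markers, could not be read at this depth.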

Other observations

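In some other groups the signs also turned with the libraries compared. Of 39 tested proteasome subunits, 32 had positive log2 fold changes with MitoQ (median 0.14), and 13 of 39 without water libraries 2 and 5 (median -0.05). For mitochondrial ribosomal proteins these were 64 of 78 and 28 of 78. Of 224 tested olfactory receptor genes, 77 had positive values (median -0.10), and 163 of 234 without the 2 libraries (median 0.12). None of these lists held a called gene in either fit.

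Of 20 circadian clock genes, 14 were called for diabetes in the ethanol arm, against 16.4% of all genes tested there, with a median of 0.61, and 0 were called for MitoQ, with a median of -0.085, or -0.13 without water libraries 2 and 5. Leaving out water libraries 1 and 4 instead gave a median of 0.19 with 12 of 20 positive. Npas2, a partner of the clock activator Bmal1, was at 1.89, 4.22, 6.02, 4.06 and 3.83 CPM on water and at 2.47, 16.0, 10.4, 2.19 and 4.26 CPM with MitoQ (log2 fold change 0.81, SE 0.52, and 0.27 without MitoQ library 2). Its values spread more among the MitoQ libraries than among those on water. Phgdh, the first enzyme of serine synthesis, was at 22.2, 12.1, 2.09, 17.1 and 1.98 CPM on water and at 4.76, 2.12, 2.60, 9.57 and 3.22 CPM with MitoQ (log2 fold change -1.33, SE 0.63, and -1.62 without water libraries 2 and 5). Over all alternatives the Phgdh value ran from -1.82 to -0.23. Nr4a1, an immediate early gene, had -0.94 (SE 0.40).

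With a covariate for the axis along which replicates differ most, chosen after seeing the data, 0 genes were called and 864 had an unadjusted p under 0.05 by edgeR. Grip2 had the smallest p there (log2 fold change -1.07, SE 0.20), followed by Gm12895 (-1.15, SE 0.22) and Gm19220 (-1.10, SE 0.22). Hmox1 was among the first 15 at 0.42 (SE 0.095, edgeR adjusted p = 0.951).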
